A study of Mus musculus with 2 samples.

Results

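The adrenomedullin receptor system was followed through 7 genes that were listed by name: the ligand genes Adm and Adm2, the receptor genes Calcrl and Calcr, and the accessory protein genes Ramp1, Ramp2 and Ramp3. All 7 of the 18193 genes with a probe set of their own were found, on 12 probe sets that the platform annotation assigns to a single gene. The set was chosen by the Ramp3 signals of these same arrays, which differed strongly, so the Ramp3 values are given as a description. Uterine stromal cells of C57BL/6 mice were collected on day 4 of pregnancy and measured on Affymetrix 3' arrays. One group was the Msx1Msx2 floxed control, and the other was Msx1Msx2-null, from the same floxed alleles crossed to PRcre. Whether the controls carried PRcre is not stated in the labels. PRcre expresses Cre from the progesterone receptor gene, so deletion is directed to progesterone receptor-expressing cells of the uterus and not to stroma alone. Cells were released with collagenase after epithelial clumps had been removed, and RNA from 5 mice per genotype by the design text, or 4 by the extraction text, was pooled onto 1 array per genotype. Each value is therefore a single measurement with no replicate error, no p-value was computed, and genotype, pool and hybridization cannot be told apart.

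Adrenomedullin is a small vasodilator peptide that also acts on blood vessel and lymphatic growth and is needed for normal fertility in female mice. Its receptor is built from the seven-transmembrane protein CLR, the product of Calcrl, which reaches the cell surface only together with a receptor activity-modifying protein. Pairing with RAMP1 gives the CGRP receptor, and pairing with RAMP2 or RAMP3 gives adrenomedullin receptors. The calcitonin receptor, the product of Calcr, forms amylin receptors with the same partners.

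Across the system the accessory protein gene Ramp3 was higher and the ligand gene Adm was lower in Msx1Msx2-null cells, while the signals of Calcrl, Ramp1 and Ramp2 were close in both arrays. Adm2 and Calcr were too dim on this platform to be compared. Signals are MAS5 intensities on a linear scale, and a gene was taken as measurable when its brightest probe set exceeded the median signal of the non-control probe sets in at least 1 array, a floor of 31.0 for the control array and 30.1 for the null array. By that rule 5 members were measurable and 2 were not. Of the 5, 1 was past 2-fold higher and 1 past 2-fold lower. Over all 11833 measurable genes, 1.59% were past 2-fold higher and 1.80% past 2-fold lower, together 3.39%. The median log2 ratio of null over control was -0.18 for the 5 members and 0.02 for all measurable genes. To give a scale for probe noise, pairs of probe sets from 1 gene were compared over 4690 genes, which gave a standard deviation (SD) of 0.27 for the log2 ratio of a single probe set and 0.21 among the brightest pairs when these were split into 3 equal classes of signal. That SD holds no difference between mice, pools or hybridizations.

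**Figure D1:**
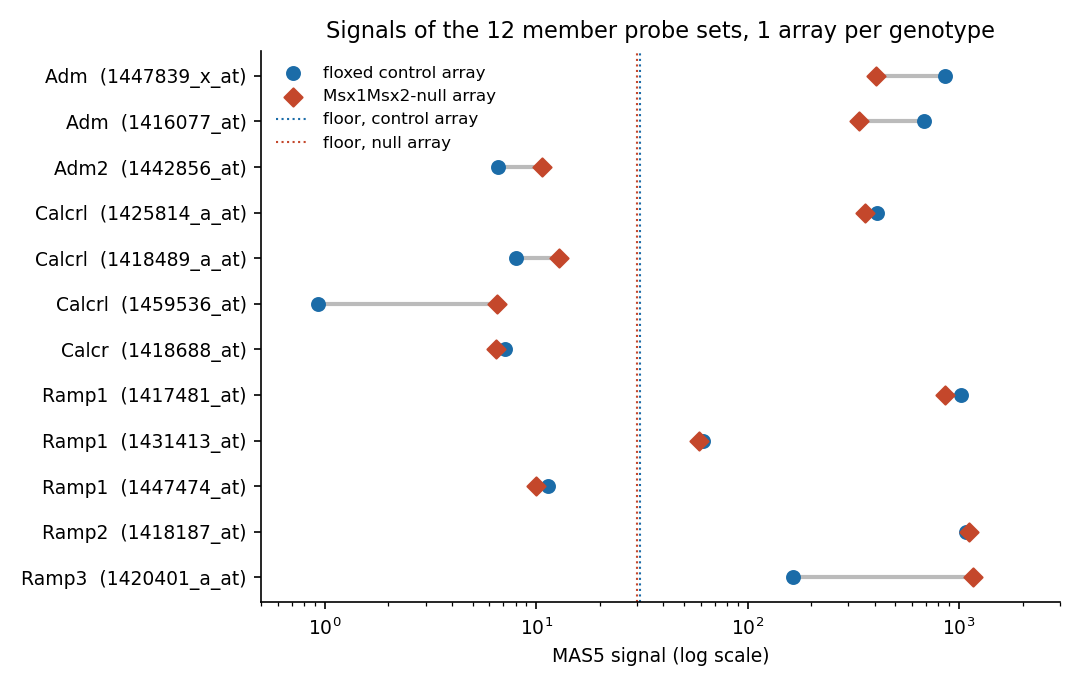
MAS5 signal (log scale) of the 12 member probe sets in the floxed control array (blue circles) and the Msx1Msx2-null array (red diamonds), with the floor of each array as a dotted line. The Ramp3 pair lies far apart with the null array higher, both Adm pairs lie apart with the null array lower, and 5 probe sets are under both floors.

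Ramp3 encodes the accessory protein that gives CLR an adrenomedullin receptor able to recycle to the cell surface, and the gene is known to respond to estrogen in several tissues. Its single probe set, 1420401_a_at, read 163 in control cells and 1168 in null cells. The null signal was thus the higher by 7.15-fold, a log2 ratio of 2.84. In rank, the probe set went from the 75.4th to the 95.9th percentile of all probe sets. Ramp3 held place 7 from the top among the 11833 measurable genes, and place 6 among the 11137 that exceeded the floor in both arrays. With 1 probe set for Ramp3, no other reading of the same transcript is set beside it.

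The sequence before the Ramp3 transcription start is shown because this was the member with the widest difference and because the labels concern a DNA-binding factor. It is the RefSeq sequence of GRCm38.p6 at chr11:6658283-6658532, plus strand, the 250 bases before the start, with 65.2% G or C against a median of 52.4% over 32851 such windows of the mouse genome. A set of 5 short strings was searched on both strands. They were TAATT, the core shared by many homeobox protein sites including those of Msx proteins, the estrogen receptor half-site GGTCA, the hypoxia response cores ACGTG and also GCGTG, and the box GGGCGG bound by Sp and Klf factors. Capitals mark every match.
Ramp3: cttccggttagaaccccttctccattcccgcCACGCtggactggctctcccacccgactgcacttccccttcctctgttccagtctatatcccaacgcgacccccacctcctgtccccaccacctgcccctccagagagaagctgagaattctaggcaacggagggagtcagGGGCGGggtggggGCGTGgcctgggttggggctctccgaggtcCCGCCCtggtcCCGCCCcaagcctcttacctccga
The Ramp3 window held 3 matches to GGGCGG and 2 to GCGTG, and 0 to the homeobox core, the estrogen receptor half-site or the core ACGTG. Over all windows, 32.7% held GGGCGG and 28.2% held GCGTG at least once. The homeobox core was found in 25.0% of all windows, the estrogen receptor half-site in 35.2% and the core ACGTG in 16.6%. A match is a string of letters and not a measured binding site.

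Adm, the gene for the ligand, had the reverse pattern on both of its probe sets. The signal on 1447839_x_at was 863 in control cells and 404 in null cells. On 1416077_at it was 684 in control cells and 338 in null cells. Both were therefore lower in null cells, by 2.14-fold and 2.03-fold, with log2 ratios of -1.10 and -1.02 that lay only 0.08 apart. The probe sets read the same pools, so their closeness bears on probe noise and not on differences between mice. Adm held place 160 from the bottom among 11833 genes, and 1.34% of genes had a lower ratio. Both probe sets passed 2-fold only narrowly.

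The Adm promoter is shown beside that of Ramp3 because these were the 2 members past 2-fold and they went in opposite directions. It lies at chr7:110627407-110627656 of GRCm38.p6, plus strand, again the 250 bases before the RefSeq start, with 56.8% G or C and the same marking.
Adm: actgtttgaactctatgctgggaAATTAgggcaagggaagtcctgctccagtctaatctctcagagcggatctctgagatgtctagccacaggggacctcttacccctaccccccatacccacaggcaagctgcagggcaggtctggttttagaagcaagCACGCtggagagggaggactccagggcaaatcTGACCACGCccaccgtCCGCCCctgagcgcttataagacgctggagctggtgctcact
This window held 2 matches to GCGTG and 1 each to the Sp/Klf box, the estrogen receptor half-site and the homeobox core, where the GGTCA match and a GCGTG match shared 1 base. The RefSeq promoter table gave 7 windows for 6 of the 7 members, Calcr with 2 starts, and Ramp2 was not among them. Of these 7 windows GCGTG was in 2, the Sp/Klf box in 4, the estrogen receptor half-site in 2, the homeobox core in 2 and the core ACGTG in 0. Over all windows the shares were 28.2%, 32.7%, 35.2%, 25.0% and 16.6% in the same order. The Sp/Klf box holds only G and C, and its 4 windows had 65.2% (Ramp3), 56.8% (Adm), 70.8% (Calcr) and 48.4% (Calcrl) G or C. With 7 windows these counts are no result about the members. For GCGTG, found in the Ramp3 and Adm windows, 2 of 7 is close to the 28.2% of all windows, so its presence in both is no result about these genes.

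Adm2, which encodes the related ligand intermedin, was under the floor. Its probe set 1442856_at had signals of 6.61 in control cells and 10.7 in null cells. Calcr was likewise dim on 1418688_at, with 7.12 and 6.42. At these intensities MAS5 signals carry little information, so no fold is given, and a signal under the floor does not show that a gene was silent.

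Calcrl encodes the receptor protein that all CLR complexes share. Probe set 1425814_a_at had signals of 410 in control cells and 361 in null cells, a log2 ratio of -0.18, which is smaller than the probe noise SD of 0.21 for bright probe sets. The other 2 Calcrl probe sets were under the floor in both arrays. One of them, 1418489_a_at, read 8.07 and 12.9, and the other, 1459536_at, read 0.932 and 6.52. The lowest of these signals stood at percentile 6.45 of its array, where MAS5 ratios are unstable, and the pairs are therefore not read as differences.

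Ramp1 and Ramp2 encode the other accessory proteins, and both were among the brighter genes in both arrays. Ramp1 read 1027 in control cells and 859 in null cells on 1417481_at, a log2 ratio of -0.26. Its second measurable probe set, 1431413_at, read 61.3 and 58.9, a log2 ratio of -0.06, and the remaining one, 1447474_at, was under the floor at 11.4 and 9.94. Ramp1 was slightly lower on both measurable probe sets, by little more than the noise SD of 0.21 on the bright one and by less than the SD of 0.32 for its brightness class on the dim one. Ramp2, the partner required for vascular development, read 1077 in control cells and 1112 in null cells on 1418187_at. The log2 ratio of 0.05 was well within probe noise. Another 2 probe sets name Ramp2 together with a second gene and were not used.

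Among the accessory proteins Ramp3 had by far the largest difference, which is what the set was chosen for. The log2 ratio of Ramp3 exceeded that of Ramp2 by 2.79, that of Ramp1 by 3.09 and that of Calcrl by 3.02. The log2 ratios of Calcrl, Ramp1 and Ramp2 differed from one another by at most 0.30. The middle 50% of measurable genes lay between -0.21 and 0.24, a range that holds Calcrl and Ramp2, with Ramp1 just below it. Levels of different genes cannot be ranked from these signals, since each probe set has its own affinity, so the share of receptor that pairs with each accessory protein is not given by these data.

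Genes that make, modify or remove the ligand were mostly within 2-fold. Of 13 such genes on the array 10 were measurable, with 4 ratios above and 6 below 0, a median of -0.14, 0 past 2-fold higher and 1 past 2-fold lower. The exception was Dpp4, a cell surface dipeptidyl peptidase, at 337 in control cells and 93.8 in null cells, 3.59-fold lower. Mme, the peptidase neprilysin that degrades adrenomedullin, read 2004 and 1313, a log2 ratio of -0.61. Ackr3, a scavenger receptor for adrenomedullin and CXCL12, read 494 and 796, a log2 ratio of 0.69. Pam, the enzyme that amidates the peptide and so makes it active, read 414 and 308, a log2 ratio of -0.43. The proprotein convertase gene Pcsk6 exceeded the floor only in null cells, at 23.8 and 46.3, at least 1.49-fold higher. The CGRP and amylin genes Calcb and Iapp were under the floor, as was Gpr182, a receptor of endothelium once reported to bind adrenomedullin.

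Downstream of the receptor, CLR acts mainly through the stimulatory G protein, adenylyl cyclase and protein kinase A. Of 33 coupling and trafficking genes 32 were measurable, 17 with ratios above and 15 below 0, and 0 passed 2-fold in either direction, with a median of 0.03. Gnas, the stimulatory G protein subunit, read 5281 and 4924. Crcp, a protein that couples CLR to its signal, read 194 and 189. Both were nearly level. The adenylyl cyclase genes spread furthest: Adcy5 read 62.7 and 118, a log2 ratio of 0.91, and Adcy1 read 136 and 212, a log2 ratio of 0.64, whereas Adcy4, a cyclase abundant in endothelium, read 128 and 78.0, a log2 ratio of -0.72. Nos3, the endothelial nitric oxide synthase through which adrenomedullin relaxes vessels, read 224 and 141, a log2 ratio of -0.67. Slc9a3r1, the scaffold NHERF1 that binds the tail of RAMP3, read 443 and 568, a log2 ratio of 0.36, with another probe set of opposite sign.

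RAMPs also bind other class B peptide receptors, and few of these were measurable. Of 12 on the array 10 were under the floor in both arrays. Pth1r, the receptor of parathyroid hormone and its related protein, read 260 in control cells and 572 in null cells, 2.20-fold higher. Adcyap1r1, the PACAP receptor, was near the floor at 48.0 and 37.1. The median of these 2 genes is not a useful summary.

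Adm is a classical target of hypoxia-inducible factors. Of 18 genes of that response 16 were measurable, with 10 ratios below and 6 above 0, and 0 past 2-fold. Their median was -0.12, against 0.02 for all measurable genes. Hif3a, a HIF subunit, read 151 and 86.3, a log2 ratio of -0.81, and Epas1, which encodes HIF-2 alpha and is abundant in endothelium, read 2266 and 1447, a log2 ratio of -0.65. The glucose transporter gene Slc2a1 had -0.55 and Vegfa -0.39, while Hif1a and Arnt had 0.30 and 0.34. Of the 12 measurable targets 8 had ratios below 0 and 4 above, with a median of -0.12. That median lay between the lower and upper quartiles of all measurable genes, -0.21 and 0.24. The part of hypoxia signalling in the lower Adm signal was not tested.

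The 6 genes nearest to Ramp3 in the plane of both log2 signals, over 2 arrays only, were A2m, Enpp3, Ltf, Acod1, Col7a1 and Tbpl1. A2m, the protease inhibitor alpha-2-macroglobulin, lay at a distance of 0.34 with signals of 135 and 1328. Enpp3, an ectonucleotidase, lay at 0.63 with 162 and 754, and Ltf, the lactoferrin gene of estrogen-exposed uterine epithelium, lay at 0.71 with 124 and 780. Acod1 also lay at 0.71, Col7a1 at 0.87 and Tbpl1 at 0.97. Nearness in 2 arrays describes similar signals and nothing more.

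Steroid response genes went in both directions. Of 7 measurable estrogen response genes 3 were past 2-fold higher and 2 past 2-fold lower, with a median of 1.00. Lcn2, a lipocalin, read 35.0 and 311, and Sprr2f, which encodes a proline-rich epithelial protein, read 704 and 5565. They were 8.90-fold and 7.90-fold higher, and Ltf was 6.30-fold higher. The list was drawn up with these values known and Ramp3 was chosen for its own, so their likeness in size supports nothing. Sprr2f belongs to a family of near-identical genes whose signals cannot be separated. The water channel gene Aqp5 read 236 and 59.9 and was 3.93-fold lower, and Clca3a1 had a log2 ratio of -1.15. Of 8 progesterone response genes 1 was past 2-fold, Acod1, the itaconate-producing enzyme, at 231 and 820. The receptor genes themselves were within 2-fold, Esr1 at 3956 and 3371 and Pgr at 1891 and 2663. PRcre uses the progesterone receptor gene, and whether the controls carried it is not stated. Its part in the Pgr values was not tested.

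**Figure D2:**
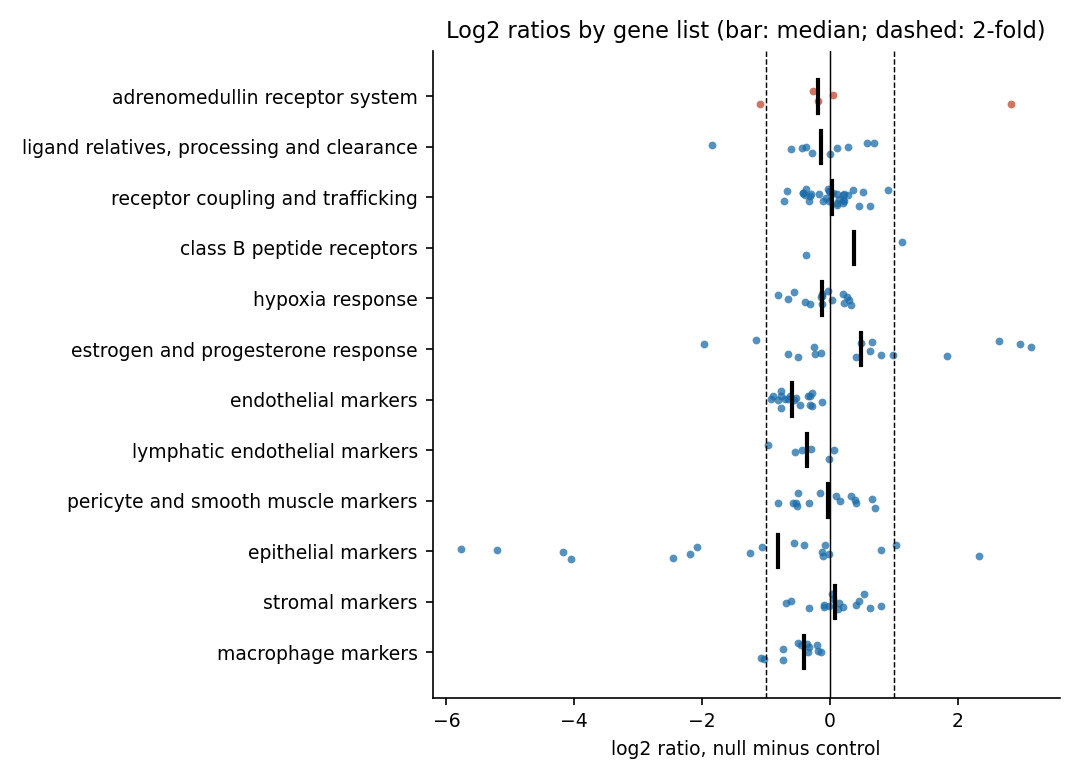
Log2 ratio of null over control for the measurable genes of each list, 1 point per gene with random vertical scatter, a bar at the median and dashed lines at 2-fold. The members (red) have 3 points near 0, Adm at -1.10 and Ramp3 at 2.84, the endothelial points all lie below 0, and the epithelial points have the widest spread.

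Markers of other cell types moved between the arrays beside these values. In such bulk RNA, fewer cells of a type and less RNA per cell cannot be told apart. Calcrl, Ramp2 and Adm are known to be expressed by endothelium. All 18 endothelial markers were measurable with ratios below 0, from -0.92 to -0.12, with a median of -0.59 and 0 past 2-fold. Their summed signal went from 9218 in the control to 6241 in the null array, of which Sox17 alone gave 2074 and 1506. This list, like those of the other cell types, was drawn up with earlier results of these data known. It leaves out Cd34, placed among the stromal markers, which had a log2 ratio of 0.53. Plvap read 492 and 259, Emcn 954 and 515, Pecam1 325 and 186 and Tek 421 and 248. The log2 ratios of the 3 members were -1.10 for Adm, -0.18 for Calcrl and 0.05 for Ramp2, each a single reading. Of 7 lymphatic markers 6 were measurable and 5 of those had ratios below 0, with a median of -0.36. The summed signal of all 7 was 1396 and 1008. Pdpn, also made by fibroblasts, had the lowest ratio at -0.97, Mmrn1 had -0.54, and Prox1, the defining lymphatic factor, was under the floor. All 12 macrophage markers had ratios below 0, from -1.08 to -0.13, with a median of -0.41 and a summed signal of 10748 and 7836. Fcgr3 and Mrc1 were past 2-fold at -1.08 and -1.02. The part of these cell types in the Adm, Calcrl and Ramp2 values was not tested.

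Epithelial transcripts were present although epithelium had been discarded. The summed signal of the 19 epithelial markers on the array was 20131 in control cells and 13017 in null cells. That sum joins gland markers, with a median log2 ratio of -3.25, and luminal and general markers, with a median of -0.09. It is therefore no measure of epithelial RNA as a whole. All 8 gland markers, a list drawn up with their values known, were past 2-fold lower, with Spink1 at 4657 and 85.2, Wfdc3 at 676 and 40.9, and Ttr and Prss29 at least 36.8-fold and 18.2-fold lower. Of 10 measurable luminal and general epithelial markers 2 were past 2-fold higher and 1 lower. Those higher were Calb1, at 750 and 3804, and Krt19, while Krt18 was lower and Epcam was nearly level at 987 and 940. The part of epithelial RNA in the higher Ramp3 signal was not tested. The 14 pericyte and smooth muscle markers had 7 ratios on each side of 0 and a joint median of -0.03. Divided by cell type after their values were seen, 6 of 7 pericyte markers had ratios below 0, with a median of -0.51 and a summed signal of 10693 and 7629, and 6 of 7 smooth muscle markers had ratios above 0, with a median of 0.40 and a summed signal of 9995 and 12903. Among the pericyte markers Notch3 had -0.81 and Abcc9 -0.57, and among those of smooth muscle Cnn1 had 0.70 and Actg2 0.66. The part of both cell types in the member values was not tested. All 16 stromal markers were measurable and within 2-fold, with a median of 0.09 and a summed signal of 69172 and 71057, so the defining markers of the labelled cell type were present in both arrays. Hoxa11, a uterine homeobox factor, read 767 and 1333, and Pcolce, a collagen processing enhancer, read 2675 and 1669.

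Msx1 and Msx2 themselves were lower in null cells, as the label requires. Msx1 read 1581 in control cells and 23.0 in null cells on its brightest probe set, at least 52.6-fold lower, and Msx2 read 63.7 and 14.5, at least 2.12-fold lower. The position of these probe sets relative to the deletions is not given in the sources used here. The 3'/5' signal ratio, a measure of RNA integrity, was 0.967 for Gapdh and 1.80 for Actb in control cells, against 1.28 and 2.33 in null cells. Its part in the member values was not tested.

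Under 7 other ways of processing the signals the member values stayed near those given above. Many of them could not act on a given gene, such as a floor on a bright probe set or a median over a single one, and left its value identical: 4 of 7 for Ramp3, Calcrl and Ramp2, 3 for Ramp1 and 2 for Adm. Under the remaining 3 Ramp3 lay between 2.72 and 2.88 on the log2 scale, and under the remaining 5 Adm lay between -1.10 and -1.02, past 2-fold each time. Calcrl lay between -0.18 and -0.14, Ramp1 between -0.27 and -0.16 and Ramp2 between 0.03 and 0.09, all within 2-fold. These alternatives reuse the same 2 arrays and therefore hold no information on differences between mice.

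**Figure D3:**
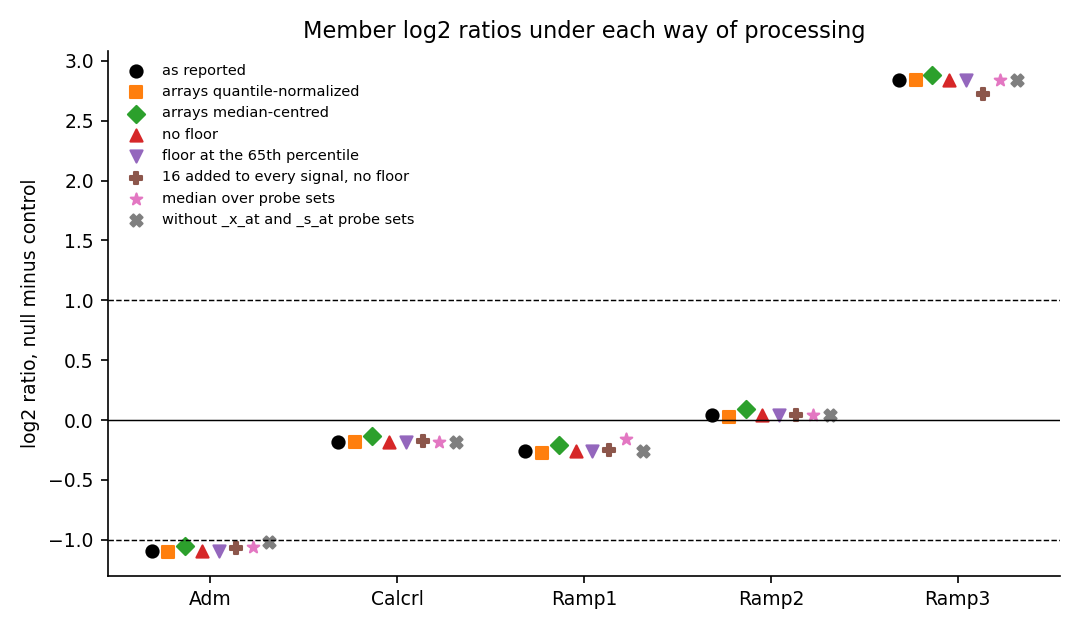
Log2 ratio of null over control of the 5 measurable members as reported (black) and under 7 alternatives of scaling, floor, offset and choice of probe sets, with dashed lines at 2-fold. Points of each gene cluster tightly, Ramp3 between 2.72 and 2.88 and Adm between -1.10 and -1.02.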

How the data were processed

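The authors deposited 1 linear signal intensity for each probe set and array. The submitters' processing notes name MAS5 and Affymetrix Expression Console 1. Both arrays had a mean signal of 150.0 after trimming 2% of probe sets at either end, which shows a shared scaling target. The scaling parameters are not given in the sources used here, and no detection calls were used. MAS5 subtracts mismatch signal, which makes ratios of dim probe sets unstable. Of 45101 probe sets, 64 were controls, 34945 had 1 gene symbol, 932 several and 9160 none in the platform annotation, and only those with 1 symbol were used. Each gene was represented by its brightest probe set over both arrays. Signals under the floor, the 50th percentile of non-control probe sets in an array, were raised to it, and 6360 genes under it in both arrays were left out. Folds that use a floored signal are written as "at least". Log2 ratios are null minus control and were called by size at 2-fold, since 1 array per genotype allows no test.

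The 7 members and the 11 other gene lists, with the alternatives and the naming rule, were chosen with earlier results of these data known. The rule named every member probe set, Msx1, Msx2, up to 4 genes with the largest ratios per list, and the 6 genes nearest to Ramp3. Other list members named in the report were chosen after their values were seen. Of 185 different list genes, 176 had a probe set with a single symbol, NHERF1 under the symbol Slc9a3r1. Promoters are from RefSeq, GRCm38.p6. No build is given for the probes, so no probe coordinates are printed. The scripts (Python 3.11.15, pandas 2.3.3, numpy 2.4.6) were tested on simulated data.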

Additional observations from a re-analysis of the deposited data

How the results depend on the processing

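With 1 array per genotype, no replicate could be left out and no test run. No paired analysis was possible because each genotype had a single array. For the 5 measurable members none of the 7 alternatives moved a log2 ratio by as much as the probe noise SD of 0.27, but 4 of them could not act on Ramp3, Calcrl or Ramp2, 3 not on Ramp1 and 2 not on Adm. The counts over all genes depended on the floor. Without a floor 1797 genes were at least 2-fold higher and 1772 lower, while the floor of the 65th percentile left 97 higher and 123 lower, against 188 and 213 as reported. With 16 added to every signal in place of a floor they were 187 and 216. Median centring shifted the median log2 ratio of all genes from 0.02 to 0.06 and turned the balance to 214 higher and 189 lower. Among the lists, the ligand processing median of -0.14 moved to -0.28 without a floor or with the higher one. It moved to -0.37 without _x_at and _s_at probe sets. The coupling and trafficking median turned sign in 1 alternative and the pericyte and smooth muscle median in 2. The class B receptor median, which rests on 2 genes as reported, ranged from -0.01 to 1.14 because the floor changed which genes entered. Without a floor all 12 on the array did, and with the higher floor only Pth1r did. The epithelial median moved to -0.52 with 16 added to every signal. Adm2, Calcr and both dim Calcrl probe sets are limited by signal over background.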
